A study of Mus musculus with 14 samples.

Results

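The 6 genes described here encode the classical platelet-derived growth factor (PDGF) system: the receptors Pdgfra and Pdgfrb and the ligands Pdgfa, Pdgfb, Pdgfc and Pdgfd. They were picked by name, as the complete set of PDGF receptors and ligands of the mouse, from a table of 24454 genes, and all 6 were in it and passed the filter on low counts that left 15125 genes for testing. RNA-seq was carried out on 5 populations of mesenchymal cells sorted from mouse forelimb buds, with 14 libraries in all.

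All embryos carried a Sox9 IRES-EGFP allele, in which EGFP reports Sox9 expression, in a mixed Swiss Albino background, and forelimb buds of several embryos were pooled for a sort. Living (7AAD-) cells negative for CD31, Ter119, CD45, EpCam, Gr1 and CD11b were used in all sorts. S9-JAG1+ limb bud mesenchymal progenitors (LMPs) were Sox9-JAG1+SCA-1-, S9-Pαhi LMPs were Sox9-JAG1-SCA-1-PDGFRαhi, S9+Pαhi osteo-chondrogenic progenitors (OCPs) were Sox9+PDGFRαhi, and S9-SCA-1+ cells were Sox9-JAG1-SCA-1+, all at embryonic day E10.5. S9+Pαhi Col2a1+ chondroblasts (CBs) were sorted at E11.5 through the gate used for OCPs, so that population and stage cannot be told apart in any comparison with them. Each population had 3 libraries except S9-SCA-1+ cells, which had 2. The labels do not say whether the libraries of a population came from separate pools of embryos, and p-values measure the spread between these libraries.

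PDGF ligands are secreted dimers that bring together a pair of receptor tyrosine kinases, whose cross-phosphorylation recruits adaptors and activates the RAS-MAPK, PI3K, PLCγ and STAT pathways. PDGF-AA and PDGF-CC act mainly through PDGFRα, PDGF-DD mainly through PDGFRβ, and PDGF-BB through both. PDGF-C and PDGF-D are secreted with a CUB domain that has to be cut off by a protease before they can bind, whereas PDGF-A and PDGF-B are cut inside the cell by furin-type convertases. In the embryo, PDGFRα marks much of the mesenchyme, including that of the limb bud, and PDGFRβ is best known for its role in pericytes and vascular smooth muscle.

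Totals ranged from 20316583 to 29162751 counts per library. Sox9 reached 437 ± 7.04 and 535 ± 111 CPM (the counts scaled to a common library total) in OCPs and CBs and at most 62.3 ± 4.50 in the S9- populations (mean ± SD), and Jag1 was highest in S9-JAG1+ LMPs, at 296 ± 67.9 CPM. Ly6a, which encodes SCA-1, was at 3.23 ± 0.184 CPM in the S9-SCA-1+ libraries (n = 2) and did not exceed 0.247 ± 0.183 elsewhere. Col2a1, which gives CBs their name, was at 1536 ± 315 CPM in CBs and 989 ± 271 in OCPs. The 5 myogenic precursor markers looked for (Pax3, Lbx1, Met, Myf5 and Myod1) summed to 1489 and 1494 CPM in the S9-SCA-1+ libraries and to at most 10.4 in any other library. The S9-SCA-1+ libraries stood apart from each other in 7 markers of blood and platelets, which summed to 70.3 CPM in replicate 2 and 1855 in replicate 3, nearly all from the embryonic globins Hbb-y and Hba-x, and to at most 48.5 CPM in the other 12 libraries. For the members, differences from S9-SCA-1+ cells are therefore also given without replicate 3, and of the calls against S9-SCA-1+ cells given below for other genes, that of Egr1 was lost without it.

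Pdgfra was the member with the widest range. Its protein was itself a sort marker: S9-Pαhi LMPs, OCPs and CBs were gated on a high PDGFRα level. The labels of the S9-JAG1+ and S9-SCA-1+ sorts name no PDGFRα criterion, and in the study both were taken from Sox9-negative cells that were PDGFRα-positive. Every population was thus selected on PDGFRα to some degree, and Pdgfra differences across the divide between high and not high are given as values without a test. The gene (Entrez 18595) spans chr5:75151322-75198206 in GRCm38. In S9-JAG1+ LMPs, Pdgfra was at 246, 246 and 248 CPM in replicates 1 to 3. In S9-Pαhi LMPs it was at 437, 530.0 and 360.3 CPM, and in OCPs at 667, 746 and 743. CBs had 949, 869 and 773 CPM, whereas S9-SCA-1+ cells had 44.8 CPM in replicate 2 and 24.0 in replicate 3. The libraries of the 5 populations did not overlap anywhere along this order, and S9-JAG1+ LMPs differed least among themselves.

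The mean Pdgfra level was thus 34.4 ± 14.7 CPM in S9-SCA-1+ cells (n = 2), 247 ± 1.12 in S9-JAG1+ LMPs, 442 ± 85.0 in S9-Pαhi LMPs, 718 ± 44.8 in OCPs and 864 ± 88.3 in CBs (n = 3 each). From the lowest to the highest mean this is a ratio of 25.1. Among the populations labelled PDGFRαhi, OCPs had 1.62-fold more Pdgfra than S9-Pαhi LMPs (log2 fold change 0.70, SE 0.18, adjusted p = 0.0192). The adjusted p passed the threshold of 0.1, but the difference was under the log2 fold change of 1.2 that a call also required. For CBs against OCPs the log2 fold change was 0.27 (SE 0.18, adjusted p = 0.285), which did not pass, although the 3 CB libraries were above the 3 OCP libraries. Between the populations that were not gated on a high level, but shared the wider PDGFRα-positive gate, Pdgfra was called lower in S9-SCA-1+ cells than in S9-JAG1+ LMPs (log2 fold change -2.84, SE 0.22, adjusted p = 2.78e-07), and still so without S9-SCA-1+ replicate 3 (-2.46) or replicate 2 (-3.36). For the Sox9+ and Sox9- sorts, a shared gate label does not show a shared PDGFRα cut-off. As Pdgfra encodes the sort marker, gate placement and Pdgfra level cannot be told apart in these tests. In these bulk libraries, fewer cells that express a gene and less of its RNA per cell cannot be told apart. In S9-JAG1+ LMPs Pdgfra ranked at the 83.1 percentile of all tested genes per exon length, against 42.05 in S9-SCA-1+ cells and 97.7 in CBs.

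The promoter of Pdgfra is shown with those of Pdgfc and Pdgfd because these are the members whose levels set the populations apart and for which the RefSeq table (GRCm38.p6) gave 250 bases before a transcript start with no base in an exon of GENCODE M21. The start used is not always the first base of the gene span: the Pdgfra window lies inside the span given above, and the Pdgfd window runs past the first base of the span given below. For Pdgfra and Pdgfd, the bases just after the start used were not found in a GENCODE M21 transcript of the gene, whereas those of Pdgfc were. Capitals mark every match, on either strand, to the E-box CANNTG, the GC-box GGGCGG, the TATA motif TATAAA and the SOX-type motif ACAAAG; none of the marked matches overlap.
Pdgfra, chr5:75152001-75152250, + strand: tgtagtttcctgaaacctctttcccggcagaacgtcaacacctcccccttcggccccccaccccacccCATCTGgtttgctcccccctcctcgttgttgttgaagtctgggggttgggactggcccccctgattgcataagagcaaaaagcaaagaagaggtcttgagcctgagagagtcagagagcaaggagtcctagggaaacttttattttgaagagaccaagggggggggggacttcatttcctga
Pdgfc, chr3:81036166-81036415, + strand: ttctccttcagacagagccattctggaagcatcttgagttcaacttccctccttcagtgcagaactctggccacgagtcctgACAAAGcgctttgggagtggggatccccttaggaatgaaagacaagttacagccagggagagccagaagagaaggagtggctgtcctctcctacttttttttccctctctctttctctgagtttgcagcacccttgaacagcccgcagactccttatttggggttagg
Pdgfd, chr9:6168236-6168485, + strand: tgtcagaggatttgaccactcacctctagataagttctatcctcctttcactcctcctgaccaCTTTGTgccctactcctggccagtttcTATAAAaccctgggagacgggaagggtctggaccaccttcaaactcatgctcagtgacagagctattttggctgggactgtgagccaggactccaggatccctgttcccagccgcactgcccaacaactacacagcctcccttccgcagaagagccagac
The Pdgfra window held 1 E-box, which 66.2% of 32841 mouse promoter windows of this length also had. Pdgfc had 1 SOX-type match and Pdgfd had 1, found in 16.5% of windows, and Pdgfd also had the TATA motif, found in 12.4%. Pdgfa has 2 annotated starts, with 1 and 2 GC-boxes (32.7% of windows hold one) and a GC content of 66.4% and 72.4% against a median of 52.4% over all windows. Both Pdgfa windows overlap exons and are not printed. These are letter matches, and no binding was measured.

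Pdgfrb, on chromosome 18 (Entrez 18596), varied much less than Pdgfra among the mesenchymal populations. It was at 261, 227 and 213 CPM in S9-JAG1+ LMPs, at 251, 272 and 275 in S9-Pαhi LMPs and at 279, 229 and 246 in OCPs. CBs had 202, 181 and 189 CPM, below every library of those 3 populations. S9-SCA-1+ cells had 100.2 CPM in replicate 2 and 75.0 in replicate 3, the lowest values of all. In order of their means, S9-SCA-1+ cells were at 87.6 ± 17.8 CPM (n = 2), CBs at 191 ± 10.6, S9-JAG1+ LMPs at 234 ± 24.7, OCPs at 252 ± 25.2 and S9-Pαhi LMPs at 266 ± 13.0 (n = 3 each). Pdgfrb was called lower in S9-SCA-1+ cells than in S9-JAG1+ LMPs (log2 fold change -1.42, SE 0.13, adjusted p = 1.37e-06), S9-Pαhi LMPs (-1.60, adjusted p = 5.59e-07) and OCPs (-1.52, adjusted p = 8.51e-07). Without S9-SCA-1+ replicate 3 these were -1.22, -1.41 and -1.33, and all remained called. CBs lay between: their difference from S9-SCA-1+ cells (log2 fold change 1.12, adjusted p = 7.02e-06) and from OCPs (-0.40, adjusted p = 0.0173) passed the adjusted p but not the fold threshold. Without S9-SCA-1+ replicate 2 the former was called (1.35), and without replicate 3 it was 0.93. OCPs and S9-Pαhi LMPs (log2 fold change -0.08, SE 0.11, adjusted p = 0.667) and OCPs and S9-JAG1+ LMPs (0.11, SE 0.11, adjusted p = 0.472) did not differ beyond their spread.

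**Figure D1:**
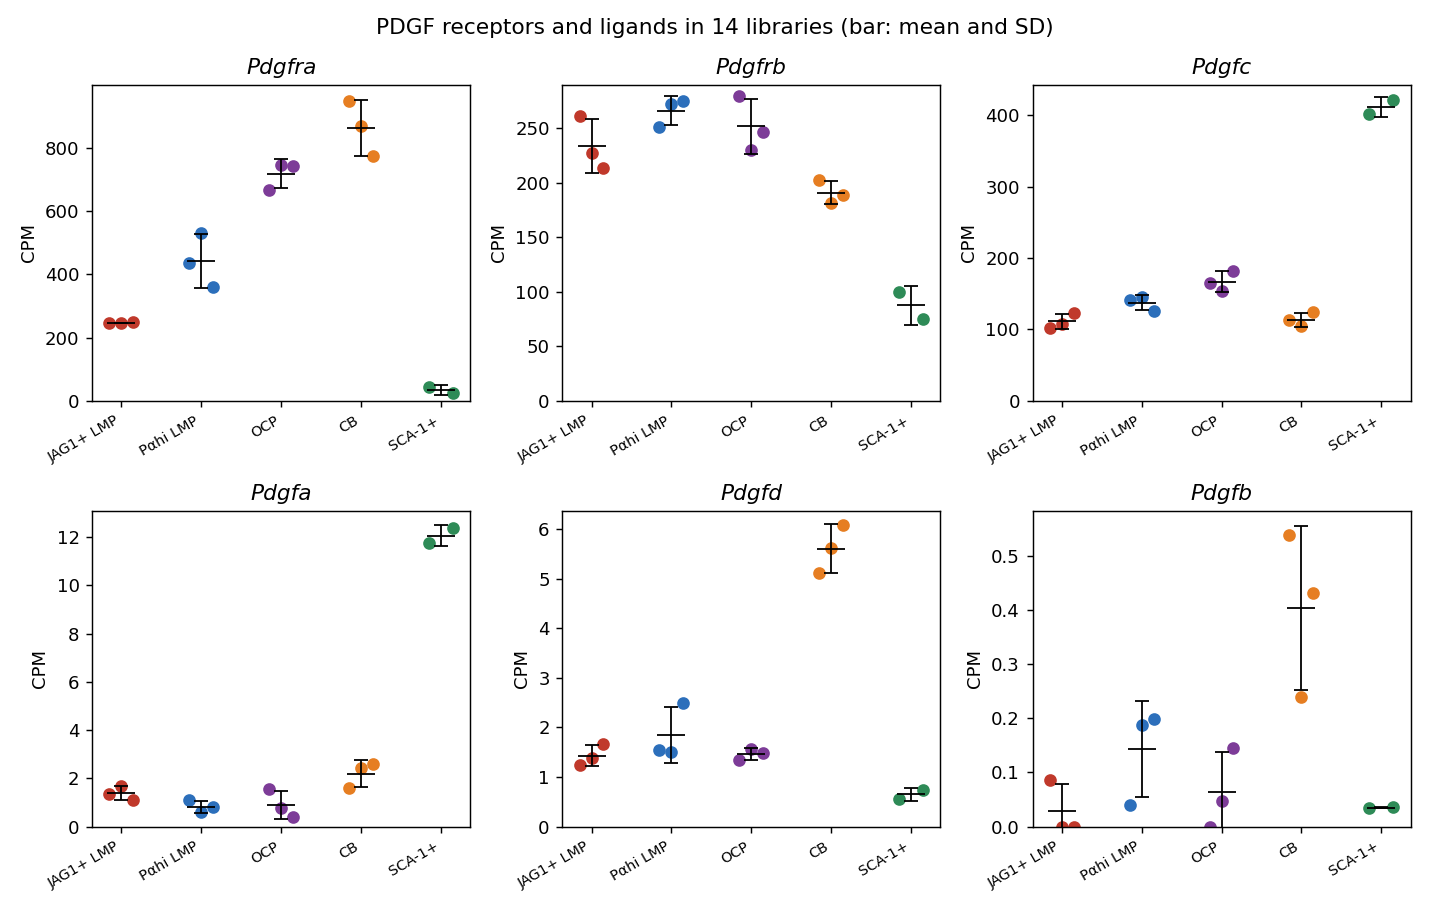
Level of the 6 PDGF genes in CPM (y axis, a separate scale from 0 for each gene) in the 5 populations (x axis). Points are libraries, and black bars are the mean and SD (n = 3, for S9-SCA-1+ cells n = 2). Pdgfra spans 24.0 to 949 CPM, the highest Pdgfrb library is at 279 CPM, Pdgfc and Pdgfa stand out in S9-SCA-1+ cells, and Pdgfd and Pdgfb in CBs.

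The relation of the receptors to each other was followed within single libraries as the ratio of Pdgfra to Pdgfrb, both taken per exon length (FPKM, the CPM divided by the exon length in the table in kilobases). The ratio was 0.757, 0.871 and 0.934 in S9-JAG1+ LMPs, so that Pdgfrb was the more abundant receptor transcript in each. It was 1.40, 1.57 and 1.05 in S9-Pαhi LMPs, 1.92, 2.61 and 2.42 in OCPs and 3.77, 3.85 and 3.29 in CBs. In S9-SCA-1+ cells Pdgfrb exceeded Pdgfra by the widest margin, with ratios of 0.359 and 0.257. The means were 0.308 ± 0.0721 in S9-SCA-1+ cells, 0.854 ± 0.0898 in S9-JAG1+ LMPs, 1.34 ± 0.262 in S9-Pαhi LMPs, 2.32 ± 0.357 in OCPs and 3.63 ± 0.303 in CBs, with no overlap between libraries of different populations. As the PDGFRα gate set part of this order, the ratio is a description and was not tested.

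Pdgfc was the main ligand transcript in every library. In FPKM it made up between 84.2% and 97.6% of the sum of the 4 ligands. The gene (Entrez 54635) spans chr3:81036416-81214040, and its promoter is shown above. Pdgfc was at 103, 108 and 124 CPM in S9-JAG1+ LMPs, at 142, 145 and 126 in S9-Pαhi LMPs and at 165, 153 and 182 in OCPs. CBs had 113, 105 and 124 CPM. The S9-SCA-1+ libraries, at 402 and 422 CPM, were more than any other library had. For S9-SCA-1+ cells (412 ± 14.5 CPM, n = 2), Pdgfc was called higher than in S9-JAG1+ LMPs (3.69-fold, log2 fold change 1.88, SE 0.11, adjusted p = 8.38e-09), S9-Pαhi LMPs (3.00-fold, adjusted p = 6.49e-08) and OCPs (2.47-fold, adjusted p = 4.33e-07), and lower in CBs than in S9-SCA-1+ cells (log2 fold change -1.86, adjusted p = 1.17e-08). Without S9-SCA-1+ replicate 3 these 4 log2 fold changes were 1.85, 1.55, 1.27 and -1.82.

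Among the other 4 populations Pdgfc differed by less than the fold threshold. OCPs had 167 ± 14.4 CPM against 111 ± 10.8 in S9-JAG1+ LMPs (log2 fold change 0.58, SE 0.10, adjusted p = 0.000257) and 114 ± 9.71 in CBs (CBs against OCPs -0.55, SE 0.10, adjusted p = 0.000915). The libraries did not overlap in either comparison. S9-Pαhi LMPs, at 137 ± 10.4 CPM, lay between: their differences from S9-JAG1+ LMPs (0.30, adjusted p = 0.0366) and of OCPs from them (0.28, adjusted p = 0.069) passed the adjusted p, but each lost it when single libraries were left out. The former had adjusted p between 0.118 and 0.134 without S9-Pαhi replicate 1 or 2 or S9-JAG1+ replicate 1 or 2, and the latter between 0.117 and 0.294 without OCP replicate 3 or S9-Pαhi replicate 1 or 3. CBs and S9-JAG1+ LMPs did not differ beyond their spread (log2 fold change 0.03, SE 0.10, adjusted p = 0.814).

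Pdgfa, the other ligand that acts mainly through PDGFRα, was low in the mesenchymal populations and highest in S9-SCA-1+ cells. The gene (Entrez 18590) spans chr5:138976014-139000792. Pdgfa was at 1.37, 1.68 and 1.11 CPM in S9-JAG1+ LMPs, 1.10, 0.602 and 0.797 in S9-Pαhi LMPs and 1.54, 0.761 and 0.398 in OCPs. In CBs it was at 1.58, 2.43 and 2.59 CPM, and in S9-SCA-1+ cells at 11.8 and 12.4, from 336 and 347 counts. No other library had more than 71 counts. S9-SCA-1+ cells were called higher for Pdgfa than S9-JAG1+ LMPs (8.70-fold, log2 fold change 3.12, SE 0.37, adjusted p = 1.52e-05), S9-Pαhi LMPs (14.5-fold, adjusted p = 4.09e-06) and OCPs (13.4-fold, adjusted p = 4.28e-06), and lower in CBs than in S9-SCA-1+ cells (log2 fold change -2.45, adjusted p = 4.62e-05). Without S9-SCA-1+ replicate 3 these 4 log2 fold changes were 3.08, 3.81, 3.71 and -2.42. Pdgfa made up 1.38% to 4.95% of the ligand FPKM in the libraries of the LMPs and 9.15% in the mean of S9-SCA-1+ cells. For 26.1% of its exon bases in GENCODE M21, Pdgfa overlaps the antisense gene 6330403L08Rik, and the library kit and counting do not state a strand, so that reads of both cannot be told apart there.

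Pdgfa was also called higher in CBs (2.20 ± 0.543 CPM) than in OCPs (0.900 ± 0.584; log2 fold change 1.29, SE 0.37, adjusted p = 0.0206) and than in S9-Pαhi LMPs (0.832 ± 0.250; 1.40, SE 0.38, adjusted p = 0.00783). The call against OCPs was just past the fold threshold. The log2 fold change was 0.89 without OCP replicate 3, 1.17 without OCP replicate 2, 1.19 without CB replicate 2 and 1.14 without CB replicate 3, all with an adjusted p under 0.1. That against S9-Pαhi LMPs was 1.196 and just under the threshold without S9-Pαhi replicate 2. S9-JAG1+ LMPs (1.39 ± 0.283 CPM) did not differ from CBs by the test (adjusted p = 0.121), from OCPs (0.221) or from S9-Pαhi LMPs (0.216).

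Pdgfd, which acts mainly through PDGFRβ, was called higher in CBs than in every other population. The gene (Entrez 71785) spans chr9:6168363-6534284, and its promoter is shown above. It was at 5.11, 5.61 and 6.08 CPM in CBs, from 152 to 164 counts. The libraries of S9-JAG1+ LMPs had 1.24, 1.38 and 1.66 CPM, those of S9-Pαhi LMPs 1.55, 1.504 and 2.49, and those of OCPs 1.34, 1.57 and 1.48. S9-SCA-1+ cells had 0.560 and 0.748 CPM, from 16 and 21 counts. Every CB library was thus above the other 11 and both S9-SCA-1+ libraries were below the other 12. Pdgfd was called higher in CBs than in OCPs (3.83-fold, log2 fold change 1.93, SE 0.23, adjusted p = 4.06e-05), S9-JAG1+ LMPs (3.92-fold, adjusted p = 5.38e-06), S9-Pαhi LMPs (3.03-fold, adjusted p = 6.2e-05) and S9-SCA-1+ cells (8.57-fold, log2 fold change 3.09, adjusted p = 9.05e-07; 3.31 without S9-SCA-1+ replicate 3). It was called lower in S9-SCA-1+ cells than in S9-Pαhi LMPs (log2 fold change -1.48, SE 0.29, adjusted p = 0.00167). Against S9-JAG1+ LMPs (-1.13, adjusted p = 0.0108) and OCPs (-1.16, adjusted p = 0.00681) the difference was under the fold threshold. Without S9-SCA-1+ replicate 3 these 3 values were -1.70, -1.35 and -1.38, all called; the latter 2 were also called without S9-JAG1+ replicate 1 (-1.22) and without OCP replicate 1 (-1.22), respectively. Without S9-SCA-1+ replicate 2 the one against S9-JAG1+ LMPs was -0.93, with an adjusted p of 0.115. S9-JAG1+ LMPs, OCPs and S9-Pαhi LMPs did not differ from each other by the test, with adjusted p from 0.33 to 0.935.

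Pdgfb, the ligand of both receptors and best known as a product of endothelium and platelets, was close to absence in these sorted cells. The gene (Entrez 18591) spans chr15:79995865-80024614. The libraries of S9-JAG1+ LMPs had 2, 0 and 0 counts, those of S9-Pαhi LMPs 1, 5 and 4, those of OCPs 0, 1 and 4 and both S9-SCA-1+ libraries 1. The CB libraries had 16, 7 and 11 counts, or 0.538, 0.239 and 0.432 CPM. Up to 3 counts, which correspond to 0.101 to 0.149 CPM in these libraries, were taken as indistinguishable from absence. The 3 CB libraries were above this and above the other 11, and at this depth Pdgfb was not detectable in S9-JAG1+ LMPs and S9-SCA-1+ cells. Over summed counts, CBs had 34 against 5 in OCPs, a ratio of 5.91 after scaling (95% exact interval 2.30 to 19.3), and against 10 in S9-Pαhi LMPs, a ratio of 2.87 (1.39 to 6.51). Against the 2 counts in S9-JAG1+ LMPs the ratio was 14.6 (3.74 to 125), and against the 2 in S9-SCA-1+ cells 11.4 (2.93 to 98.03). These intervals cover counting error only. Pdgfb was called higher in CBs than in OCPs (adjusted p = 0.0308), S9-Pαhi LMPs (0.0919), S9-JAG1+ LMPs (0.00372) and S9-SCA-1+ cells (0.0103, and 0.0705 without S9-SCA-1+ replicate 3). The call against S9-Pαhi LMPs was lost without any one of the 3 S9-Pαhi libraries (adjusted p from 0.112 to 0.273), by the DESeq2 Wald test (0.212), without the filter (0.147) and with a replicate block (0.119). Without CB replicate 1 or 3, Pdgfb did not pass the filter and was not tested. It thus entered the test only through CBs, where it was high. Its calls are therefore a description and do not count as support for a higher level in CBs. The 6 endothelial markers looked for summed to 3.26 to 3.59 CPM in the CB libraries, 2.50 to 10.6 in those of LMPs and OCPs and 11.1 to 15.3 in those of S9-SCA-1+ cells. The 7 blood and platelet markers summed to 27.5 to 48.5 CPM in CBs and 0.832 to 34.3 in LMPs and OCPs. Of the platelet genes among them, Itga2b was at 1.00 ± 0.259 CPM in CBs and 0.620 ± 0.0809 in OCPs, and Pf4 was at 0.101 ± 0.116 and 0.0497 ± 0.0548. The part of blood cells and platelets in the Pdgfb level was not tested.

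**Figure D2:**
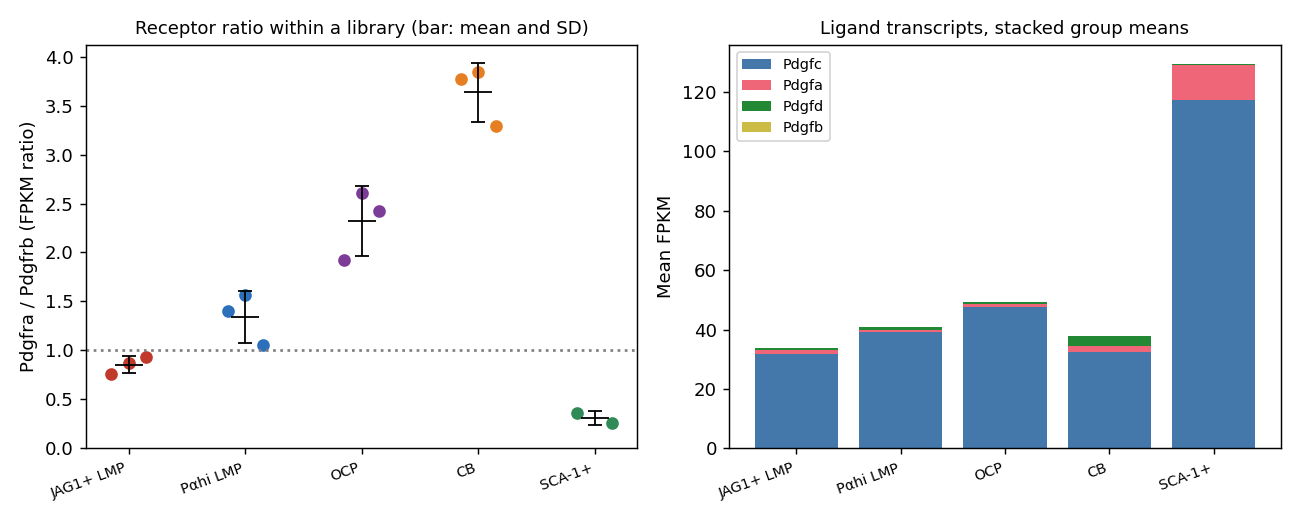
Left, ratio of Pdgfra to Pdgfrb in FPKM within each library (points), with the mean and SD of each population (black) and a dotted line at a ratio of 1. Right, mean FPKM of the 4 ligands, stacked from 0. The ratio is under 1 in S9-JAG1+ LMPs and S9-SCA-1+ cells and at most 3.85, in CBs; the ligand sum is 129 FPKM in S9-SCA-1+ cells and 33.9 to 49.3 in the others, most of it Pdgfc.

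The calls of the members were read against the share of all 15125 tested genes called in the same direction. In S9-SCA-1+ cells against S9-JAG1+ LMPs, 2 of the 6 members were called higher, as were 6.53% of all genes, and 2 lower, as were 4.91%. The sort marker Pdgfra was 1 of the 2 called lower. Pdgfra was left out of the count in the next 2 comparisons: against S9-Pαhi LMPs 2 of 5 were called higher (4.96% of all genes) and 2 lower (5.58%), and against OCPs 2 of 5 higher (4.73%) and 1 lower (8.03%). CBs had 2 of 5 higher than S9-SCA-1+ cells (13.9%), Pdgfb among them, and 2 lower (5.56%). These 4 comparisons share the 2 S9-SCA-1+ libraries and are not independent.

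In CBs, 3 of the 6 members were called higher than in OCPs, as were 6.60% of all genes, and none was called lower (1.16%). The 3 were Pdgfa, Pdgfb and Pdgfd, all of them ligands, and 1 of them (Pdgfd) was left without CB replicate 3, where Pdgfb was not tested. Pdgfb passed the filter only through CBs, so that its calls in this and the other comparisons with CBs are a description. The 6 ectoderm markers looked for summed to 9.55 to 11.6 CPM in CBs and 6.00 to 6.18 in OCPs, with Fgf8 called higher (2.34 ± 1.32 against 0.245 ± 0.159 CPM). The 5 markers of glia and neural crest summed to 21.1 to 29.21 CPM in CBs and 9.61 to 21.4 in OCPs, with Erbb3 called higher (13.7 ± 4.36 against 4.09 ± 1.73 CPM). The part of such cells in the ligand levels was not tested. The same 3 ligands were called higher in CBs than in S9-Pαhi LMPs (10.8% of all genes), with none lower (1.83%), and 1 was left without S9-Pαhi replicate 2. Against S9-JAG1+ LMPs, 2 of 5 were called higher in CBs (15.2%) and none lower (4.17%), and 1 was left, Pdgfd, without CB replicate 1 or 3. None of the members was called among the E10.5 populations sorted for JAG1, PDGFRα or Sox9. In S9-Pαhi against S9-JAG1+ LMPs, 4.42% of all genes were called higher and 2.58% lower, in OCPs against S9-Pαhi LMPs 3.48% and 1.36%, and in OCPs against S9-JAG1+ LMPs 9.03% and 3.46%. At an adjusted p of at most 0.1 without the fold threshold, 1 of 5, 2 of 6 and 1 of 5 members passed in these 3 comparisons: Pdgfc in each, and Pdgfra in OCPs against S9-Pαhi LMPs. The shares of all genes given above hold for calls only, and none was taken for the adjusted p alone. Without S9-JAG1+ replicate 1, which holds both Pdgfb counts of its population, Pdgfb was called higher in S9-Pαhi than in S9-JAG1+ LMPs (adjusted p = 0.0741). Without OCP replicate 1, Pdgfa was called lower in OCPs than in S9-JAG1+ LMPs (log2 fold change -1.29, adjusted p = 0.0122).

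**Figure D3:**
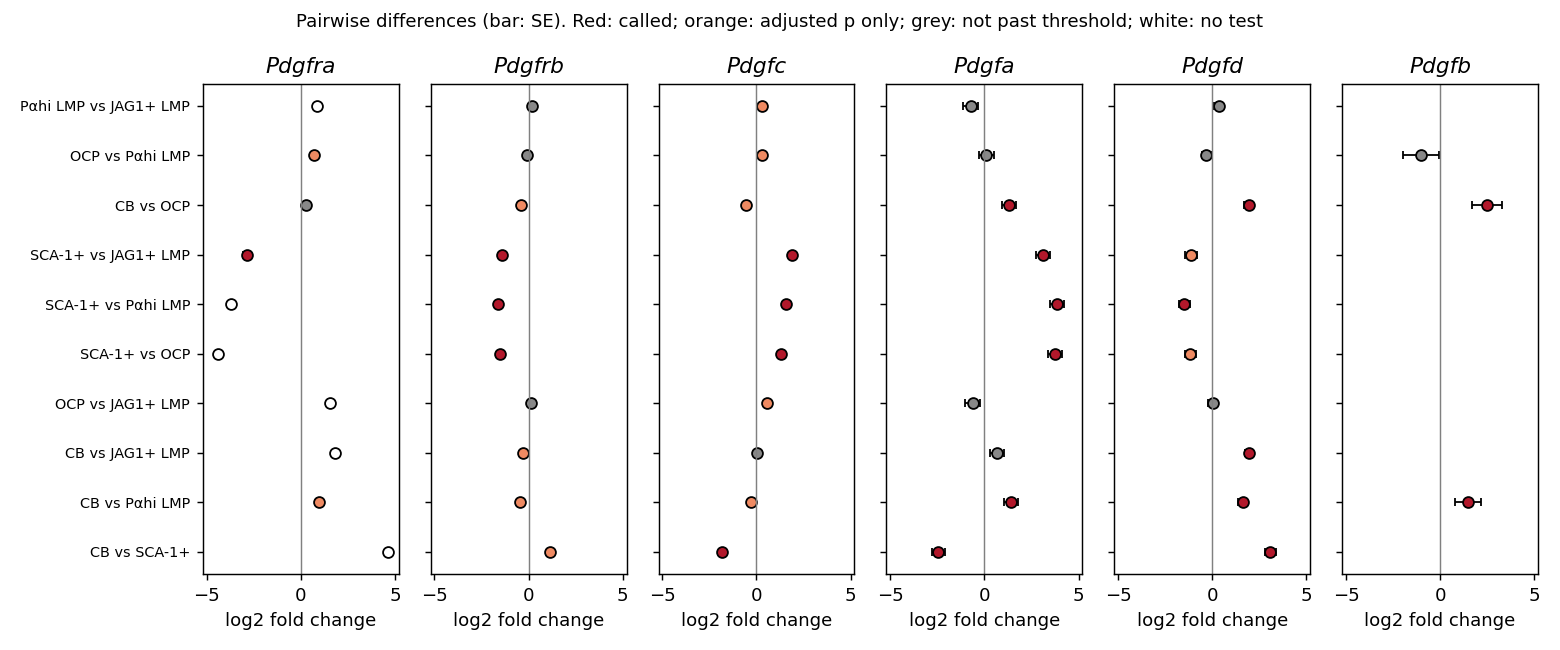
Log2 fold change of the 6 genes (x axis, first population minus the second) in 10 pairs of populations (rows), with SE bars. Red points were called, orange points passed the adjusted p only, grey points passed neither, and white points are Pdgfra across the sort gate, without a test. Pdgfb is left out where the second or first population was S9-JAG1+ LMPs or S9-SCA-1+ cells, whose libraries had at most 2 counts. Where S9-SCA-1+ cells are the first population, Pdgfc and Pdgfa lie to the right and the receptors to the left. In CBs against S9-SCA-1+ cells, where they are the second, the sides are reversed. CBs show Pdgfd to the right in all 4 of their pairs.

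Of 61 other genes of the pathway, 7 that process ligands, 4 that bind them, 32 that relay the signal, 8 that restrain it and 10 of the immediate-early response, all were tested. In S9-Pαhi against S9-JAG1+ LMPs, 4 were called higher (6.56%, against 4.42% of all genes) and 2 lower (3.28%, against 2.58%), and in OCPs against S9-JAG1+ LMPs 6 higher (9.84%, against 9.03%) and 2 lower (3.28%, against 3.46%). OCPs against S9-Pαhi LMPs had no call by edgeR's quasi-likelihood test, against 3.48% of all genes higher and 1.36% lower, and none by the DESeq2 Wald test. In edgeR 7 of the 61 passed the adjusted p alone, for which no share of all genes was taken. CBs had 3 higher than OCPs (4.92%, against 6.60%), 7 higher than S9-JAG1+ LMPs (11.48%, against 15.2%) and 6 higher than S9-Pαhi LMPs (9.84%, against 10.8%), with none lower in these 3 comparisons. S9-SCA-1+ cells had 9 higher (14.8%, against 6.53%) and 4 lower (6.56%, against 4.91%) than S9-JAG1+ LMPs, 5 higher (8.20%, against 4.96%) and 3 lower (4.92%, against 5.58%) than S9-Pαhi LMPs and 3 higher (4.92%, against 4.73%) and 3 lower (4.92%, against 8.03%) than OCPs. CBs had 9 higher (14.8%, against 13.9%) and 3 lower (4.92%, against 5.56%) than S9-SCA-1+ cells. The median log2 fold change of the members themselves, Pdgfb included, was 0.78 in CBs against OCPs and -0.41 in S9-SCA-1+ cells against S9-JAG1+ LMPs. That of the 61 genes was -0.06, 0.06 and 0.01 in the former pairs of neighbours (S9-Pαhi against S9-JAG1+ LMPs, OCPs against S9-Pαhi LMPs, CBs against OCPs), against -0.00254, 0.02 and -0.02 over all genes, and -0.04 in S9-SCA-1+ cells against S9-JAG1+ LMPs, against 0.01.

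Of the 32 adaptors, kinases, small GTPases and STATs of the signal relay, 5 were called in at least 1 of the 10 pairs of populations (15.6%), as were 30.5% of all tested genes. Their median ratio of the highest to the lowest population mean was 1.36, against 8.57 for the 5 members other than Pdgfb. Those members include the sort marker Pdgfra (25.1), and Pdgfa and Pdgfd, whose lowest means were 0.832 and 0.654 CPM. Pdgfrb and Pdgfc had ratios of 3.04 and 3.69. The ratio was not taken over all genes. Grb2, the adaptor that links receptors to RAS, was between 105 and 117 CPM in every population mean. Pik3r1, a regulatory subunit of PI3K that binds activated receptors, was among the 5 relay genes called. It was at 58.4 ± 0.705 CPM in S9-SCA-1+ cells against 21.4 ± 2.28 in OCPs (log2 fold change 1.44, adjusted p = 1.07e-07). Of the 8 brakes, Ptprj alone (12.5%), which encodes a receptor-type phosphatase, was called. It was at 24.7 ± 0.136 CPM in S9-SCA-1+ cells and 6.22 to 6.92 in the other means (1.98 against S9-JAG1+ LMPs, adjusted p = 4.43e-08).

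Of the genes that process the ligands, 4 of 7 were called in at least 1 pair (57.1%), and of those that bind them 3 of 4 (75.0%). Over all tested genes the share was 30.5%. Plat, which encodes tissue plasminogen activator, a protease that frees PDGF-C from its CUB domain, was lowest in S9-JAG1+ LMPs at 2.20 ± 1.13 CPM and was called higher in S9-Pαhi LMPs (5.93 ± 0.958; log2 fold change 1.44, adjusted p = 0.00228). The mean of S9-SCA-1+ cells, which had the most Pdgfc, was 11.47 ± 1.88 CPM. Pcsk5, a furin-like convertase, was also called higher in S9-Pαhi than in S9-JAG1+ LMPs (27.8 ± 5.52 against 10.8 ± 0.622 CPM; 1.37, adjusted p = 1.75e-05). St14, which encodes matriptase, a protease that can cut PDGF-D, fell from 1.46 ± 0.407 CPM in S9-JAG1+ LMPs to 0.181 ± 0.0543 in S9-Pαhi LMPs (-2.97, adjusted p = 8.07e-05). St14 rested on few counts, 3 to 6 in the S9-Pαhi libraries and 4 to 10 in those of OCPs. Up to 3 counts were taken as indistinguishable from absence, so the size of its fold changes is uncertain. In CBs it was called higher than in OCPs (0.850 ± 0.0940 against 0.254 ± 0.101 CPM; 1.71, adjusted p = 0.0047), as were the convertase Pcsk6 (28.2 ± 10.4 against 4.61 ± 1.36; 2.60, adjusted p = 3.8e-05) and Sparc, a matrix protein that binds PDGF-B (103 ± 18.9 against 18.2 ± 1.93; 2.50, adjusted p = 0.0007).

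Nrp1, the neuropilin that serves VEGF and semaphorin receptors and can bind PDGF ligands, followed the receptors in S9-SCA-1+ cells. It was at 18.5 ± 2.73 CPM there against 80.1 to 108 in the other means, and was called lower than in S9-JAG1+ LMPs (log2 fold change -2.54, adjusted p = 1.14e-08), S9-Pαhi LMPs (-2.11, adjusted p = 8.42e-08) and OCPs (-2.36, adjusted p = 3.14e-08). Pdgfrl, a receptor-like gene without a kinase domain, was called lower in S9-Pαhi than in S9-JAG1+ LMPs (3.26 ± 1.07 against 7.76 ± 0.566 CPM; -1.24, adjusted p = 0.000661).

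The immediate-early genes, transcription factors induced within minutes by growth factors and by other stimuli, varied widely between libraries of the same population. Egr1 was at 19.5 ± 4.66 CPM in S9-JAG1+ LMPs, 76.0 ± 58.9 in S9-Pαhi LMPs, 125 ± 75.0 in OCPs, 184 ± 68.1 in CBs and 91.2 ± 54.7 in S9-SCA-1+ cells. It was called higher than in S9-JAG1+ LMPs in S9-Pαhi LMPs (1.97, adjusted p = 0.0269), OCPs (2.68, adjusted p = 0.00262), CBs (3.24, adjusted p = 0.000396) and S9-SCA-1+ cells (2.23, adjusted p = 0.017), the last not without S9-SCA-1+ replicate 3 (1.43, adjusted p = 0.235). Fos was called higher in OCPs than in S9-JAG1+ LMPs (135 ± 70.5 against 38.7 ± 15.9 CPM; 1.81, adjusted p = 0.00565). Fosb was lowest in S9-SCA-1+ cells, at 12.1 ± 0.470 CPM, and called lower there than in OCPs (-3.00, adjusted p = 0.0109). Myc stood apart from the rest of the group: it was at 151 ± 8.88 CPM in S9-SCA-1+ cells and 10.8 to 26.4 in the other means, and was called higher than in OCPs (2.52, adjusted p = 4.31e-06).

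The VEGF family, whose ligands are the closest relatives of the PDGF ligands, was looked at beside the PDGF genes. Of its 8 members tested, 7 were called in at least 1 pair of populations, as were 30.5% of all tested genes. Vegfd, a ligand, was at 33.3 ± 1.184 CPM in S9-JAG1+ LMPs, 19.3 ± 3.99 in S9-Pαhi LMPs and 5.10 ± 0.855 in OCPs, and was called lower in OCPs than in S9-Pαhi LMPs (log2 fold change -1.92, adjusted p = 2.92e-06). Pgf, which encodes placental growth factor, was at 0.621 ± 0.0300 CPM in S9-JAG1+ LMPs, 2.55 ± 0.221 in OCPs, 4.84 ± 0.413 in CBs and 13.3 ± 1.54 in S9-SCA-1+ cells, and was called higher there than in OCPs (2.38, adjusted p = 5.42e-07). Vegfc was called lower in S9-SCA-1+ cells than in S9-JAG1+ LMPs (2.88 ± 0.411 against 14.5 ± 1.67 CPM; -2.33, adjusted p = 2.53e-06).

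Pdgfra lies on chromosome 5 beside the related receptor genes Kit and Kdr. Of 10 genes of this neighbourhood 9 were tested, and 1 was called in at least 1 pair (11.1%), as were 30.5% of all tested genes. The median ratio between their highest and lowest population mean was 1.30, against 25.1 for Pdgfra. As the PDGFRα gates set part of the Pdgfra spread, this contrast is a description only. Kit, the stem cell factor receptor, was between 21.3 and 29.0 CPM in all means and was called in no pair, as were 7 others. Kdr, the VEGF receptor of endothelium, was the exception, at 8.51 ± 3.43 CPM in the S9-SCA-1+ libraries and no more than 1.26 ± 0.656 elsewhere, and was called higher there than in OCPs (log2 fold change 2.82, adjusted p = 0.000458, and 2.33 without S9-SCA-1+ replicate 3). Of the other endothelial markers, Tek, at 3.38 ± 0.406 CPM in the S9-SCA-1+ libraries and 0.790 ± 0.184 in OCPs, was likewise called (2.10, adjusted p = 0.000223), and was at 3.79 ± 1.58 CPM in S9-Pαhi LMPs. Pecam1, Cdh5 and Emcn were at 0.354 ± 0.154, 0.564 ± 0.143 and 0.229 ± 0.0719 CPM in S9-SCA-1+ cells and were not called against OCPs, and Cldn5 was at 0.124 ± 0.0265. The other receptor kinases of the same class, Csf1r and Flt3, did not pass the filter.

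**Figure D4:**
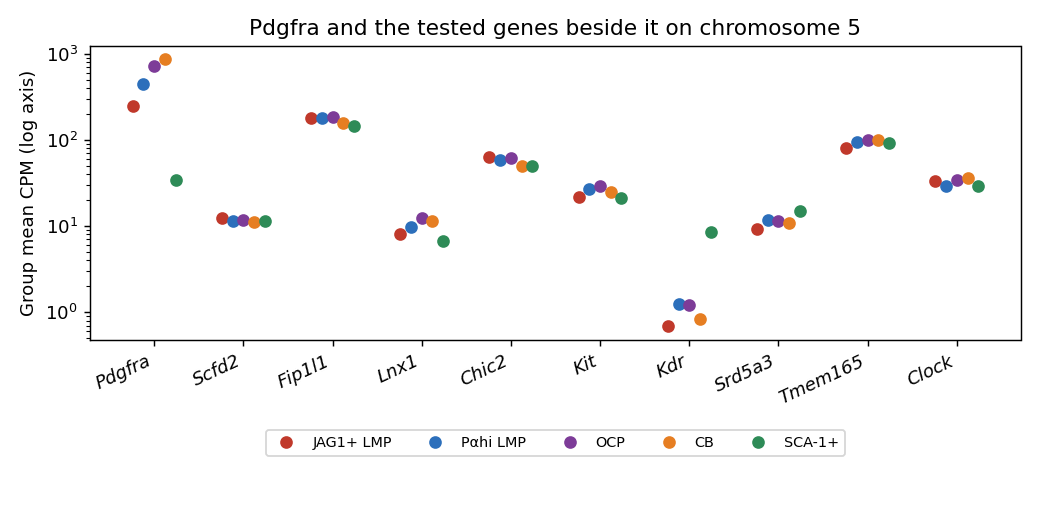
Mean level of Pdgfra and of 9 genes around it on chromosome 5 (x axis) in CPM on a log axis, 1 point for each of the 5 populations. Pdgfra, whose protein was a sort marker, spreads from 34.4 to 864 CPM. Kdr is high in S9-SCA-1+ cells alone, and the points of the other 8 genes lie close together.

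Over the log2 CPM of the 14 libraries, the genes most like Pdgfra were Lrrc56 (Pearson r = 0.99), Dnm1 (0.98), Mab21l2 (0.98), Fbln2 (0.98) and Sdk1 (0.98). Mab21l2, for example, was at 28.1 ± 9.07 CPM in S9-SCA-1+ cells, 150.4 ± 2.97 in S9-JAG1+ LMPs, 299 ± 41.4 in S9-Pαhi LMPs, 339 ± 40.4 in OCPs and 348 ± 52.5 in CBs. The points are libraries of 5 populations, so that r describes the order of a few means. Without the S9-SCA-1+ libraries, Sdk1 was the only one of these 5 still among the top 5, led by Plekhg1 (0.99, 12 libraries), and by Spearman's rho it was again Sdk1 alone (0.99). For Pdgfrb the most alike were Lmx1b (0.98), C130021I20Rik (0.97) and Plxnb2 (0.96), none of which was among the top 3 by Spearman's rho or without the S9-SCA-1+ libraries. Lmx1b, the transcription factor that marks dorsal limb mesenchyme, was at 8.59 ± 3.18 CPM in S9-SCA-1+ cells, 38.1 ± 0.709 in CBs and 58.3 to 72.3 in the other means.

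For Pdgfc the most alike were Met (0.93), Sulf2 (0.93) and Lama5 (0.93), and for Pdgfa Ezr (0.94), Anxa6 (0.94) and Tubb2b (0.93). Met, the receptor that guides migrating muscle precursors, was at 689 ± 42.04 CPM in the S9-SCA-1+ libraries and no more than 8.24 ± 0.926 elsewhere. None of these 6 was among the top 3 without the S9-SCA-1+ libraries. By Spearman's rho over all 14 libraries, Anxa6 and Ezr stayed among the top 3 for Pdgfa (0.89 each), and none stayed for Pdgfc. The part of the myogenic cells in the levels of Pdgfc and Pdgfa was not tested. For Pdgfd the most alike were Smarca1 (0.94), Col6a2 (0.94) and Lmna (0.94), with none among the top 3 by either alternative, and for Pdgfb, with its few counts, R74862 (0.90), Acer3 (0.90) and Ugdh (0.87). Col6a2, a matrix collagen chain, was at 57.6 ± 5.46 CPM in CBs and 7.64 ± 0.427 in S9-SCA-1+ cells. The 8 mural cell markers looked for, which include the pericyte genes Rgs5, Kcnj8 and Cspg4, summed to 332 to 525 CPM over all libraries, most of it Notch3. Cspg4 was at 45.8 ± 12.1 CPM in CBs, 20.8 ± 4.44 in OCPs and 4.29 ± 0.548 to 8.09 ± 1.39 in the other populations, and Mcam was at 15.3 ± 2.18 CPM in OCPs and 1.15 ± 0.210 in S9-JAG1+ LMPs. Rgs5 was highest in S9-JAG1+ LMPs, at 7.79 ± 0.492 CPM, and Kcnj8 was at 0 in OCPs and S9-SCA-1+ cells.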

How the data were processed

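The deposited table holds raw counts per gene for 14 poly(A) RNA libraries, with an exon length for each gene. According to their methods, the authors aligned single-end reads with STAR to mm10, kept 1 position for a read that fits several, and counted with QuasR reads whose start lies within exons of RefSeq mRNAs; a strand setting is not given in the sources used here. Of 24454 Entrez identifiers 24374 were matched to symbols of GRCm38.p6, while 80, with 0.358% of all counts, stayed unmatched. All sample columns were used.

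Tests used edgeR 4.0.16 in R 4.3.3: filterByExpr by population (15125 genes), TMM scaling, 1 mean for each population over all 14 libraries, and the quasi-likelihood F test with Benjamini-Hochberg adjustment over all tested genes. Calls required both an adjusted p not above 0.1 and a log2 fold change of 1.2 or more in either direction. Replicate numbers were not used as pairs. The test was checked on simulated counts. CPM are on TMM-scaled totals, and FPKM are CPM divided by the exon length in the table. The 3 counts taken as the limit of detection correspond to 0.101 to 0.149 CPM, which sets the precision for Pdgfb. Exact intervals of count ratios used scipy 1.17.1. Alternatives were other scalings and filters, DESeq2 1.42.0, a replicate block, fits with the compared populations alone and each library left out in turn.

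All 6 members are named. Of the pathway lists at most the 3 genes with the largest absolute log2 fold change in each direction of a comparison are named, with 1 steady example (Grb2) added after its values were seen; of the VEGF family and the neighbours of Pdgfra, called or high genes; and the 5 (Pdgfra) or 3 (other members) genes with the highest Pearson r on log2 CPM (prior count 2, mean of at least 3). The calls of named pathway, VEGF and marker genes without S9-SCA-1+ replicate 3 were added after the data were seen. The members, the lists and the promoter motifs were chosen with earlier results of these data known.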

Additional observations from a re-analysis of the deposited data

How the results depend on the processing

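Leaving out 1 library at a time gave 0 to 1 members called in S9-Pαhi against S9-JAG1+ LMPs and in OCPs against S9-JAG1+ LMPs, where none was called with all libraries. It gave 1 to 3 in CBs against OCPs and in CBs against S9-Pαhi LMPs (3 with all libraries), and 1 to 2 in CBs against S9-JAG1+ LMPs (2 with all). In CBs against S9-JAG1+ LMPs the count was also 1 with a filter of at least 1 CPM in 2 libraries and 1 with the compared populations alone, settings in which Pdgfb was not tested. Of the pathway genes, 0 to 1 were called in OCPs against S9-Pαhi LMPs, 5 to 7 in S9-SCA-1+ cells against S9-Pαhi LMPs (8 with all, 5 without either S9-SCA-1+ library) and 3 to 8 in CBs against S9-Pαhi LMPs (6 with all, 3 without S9-Pαhi replicate 3).

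The other counts stayed within 1.5 times their value, and none of the log2 fold changes of members with an adjusted p of at most 0.1 changed sign. The replicate numbers did not pair the libraries: over 26 pairs of libraries with the same number in 2 populations, their deviations from the population means correlated between -0.18 and 0.31 (median -0.00476), and 5 of 14 libraries were closest to one with their own number. With the number as a replicate block, 5 members were called in S9-SCA-1+ cells against S9-JAG1+ LMPs, 4 against OCPs and 2 in CBs against S9-Pαhi LMPs, in place of 4, 3 and 3; the counts of members in the other 7 pairs were the same. Without division by length, the ratio of Pdgfra to Pdgfrb was 0.383, 1.06, 1.67, 2.88 and 4.52 in S9-SCA-1+ cells, S9-JAG1+ LMPs, S9-Pαhi LMPs, OCPs and CBs. The likeness without the S9-SCA-1+ libraries was added after the data were seen. Among the members, Pdgfb alone had libraries at or under the limit of detection. Pdgfa and Pdgfd also rested on few counts, down to 11 for Pdgfa (OCP replicate 3) and 16 for Pdgfd (S9-SCA-1+ replicate 2).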
